A study of Mus musculus with 15 samples.

Results

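The integrated stress response was examined through 31 genes of its kinases, transcription factors, feedback regulators and target genes, chosen by symbol from the 22524 genes counted in each library. All 31 were matched to a row by their GENCODE M21 symbol on the GRCm38 build, and 29 passed the expression filter and were tested. RNA was sequenced from 15 C57BL/6 females aged 18 months. Of these, 7 were heterozygous for Rps9 D95N, with 1 mutant and 1 wild-type copy of a small ribosomal subunit protein gene, and 8 were wild-type littermates with both copies wild-type. Each library is 1 animal, named by genotype and animal number. Brain cortex is the tissue named in the design text, while the tissue label of each sample reads skeletal muscle.

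The neuronal gene Snap25 averaged 2746 CPM in D95N and 2844 CPM in wild-type libraries (CPM, reads of a gene relative to the TMM-scaled size of its library), and the skeletal muscle actin gene Acta1 5.88 CPM in D95N and 6.46 CPM in wild-type. All 6 muscle markers together reached 6.13 to 10.1 CPM in D95N and 6.92 to 27.9 CPM in wild-type libraries, so the tissue label of muscle was not borne out. Totals ran from 23349381 to 34052037 counts in D95N and from 28007441 to 34587082 in wild-type libraries. On the first principal component of all tested genes, with 42.2% of the variance, the wild-type libraries lay between -16.4 and -9.26. D95N 42 lay among them at -11.6, and the other D95N libraries lay between 4.05 and 28.2. In bulk tissue, fewer cells of a type and less RNA per cell cannot be told apart.

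In the integrated stress response, kinases that sense different stresses phosphorylate the alpha subunit of the initiation factor eIF2, which lowers general translation and favours translation of the transcription factor ATF4. ATF4 and its partners then switch on genes of amino acid synthesis and transport, and CHOP (gene Ddit3) and a phosphatase subunit that feeds back on the pathway. Much of this control acts on translation and phosphorylation, which transcript counts do not measure. In the brain the response is known for its part in long-term memory and in neurodegeneration, and GCN2 (gene Eif2ak4) can be activated by stalled or colliding ribosomes.

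Of the 29 tested genes, 10 rose and 2 fell in D95N, and 17 did not pass the test (edgeR quasi-likelihood, adjusted p under 0.05 over all genes). These are 34.5% and 6.9% of the members, against 15.2% of all 14989 tested genes called higher and 11.6% called lower, or 26.8% in either direction. The members were chosen with earlier results of these data known, so this contrast is not an independent test. The median log2 fold change was 0.11 over the members and -0.01 over all tested genes. Of the members called, Atf3, Stc2 and Cebpb changed by the largest amounts and the other 9 by less than 1.5-fold. For Cebpb and Asns the lowest D95N library exceeded the highest wild-type one, and for Phgdh the highest D95N library fell short of the lowest wild-type one. Such separation was seen in 1.81% of all tested genes upward and 1.47% downward. With libraries scaled by their totals, 8 members were higher and 4 lower, against 12.1% and 16.9% of all genes. Upper-quartile factors gave 9 and 3, against 12.8% and 15.7%. Without the 2 shallowest libraries, D95N 28 and 50, 6 members were higher and 2 lower, against 13.1% and 9.2% of all genes. Without D95N 42 and wild-type 19, 24 and 32, 10 were higher and 1 lower (14.0% and 10.4%). These were not the same 10, since Eif2ak4 and Aldh1l2 lost their calls and Atf4 and Cebpg gained theirs. Without D95N 28 and 42, 11 were higher and 2 lower (17.8% and 15.6%). DESeq2 called 13 and 2 (15.1% and 11.6%), limma-voom 10 and 2 (14.1% and 12.2%), and edgeR with no expression filter 11 and 2 (12.2% and 8.2%). Some members overlap exons of another gene. No source used here gives the strand setting of the counting, so reads of such pairs cannot be told apart.

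**Figure D1:**
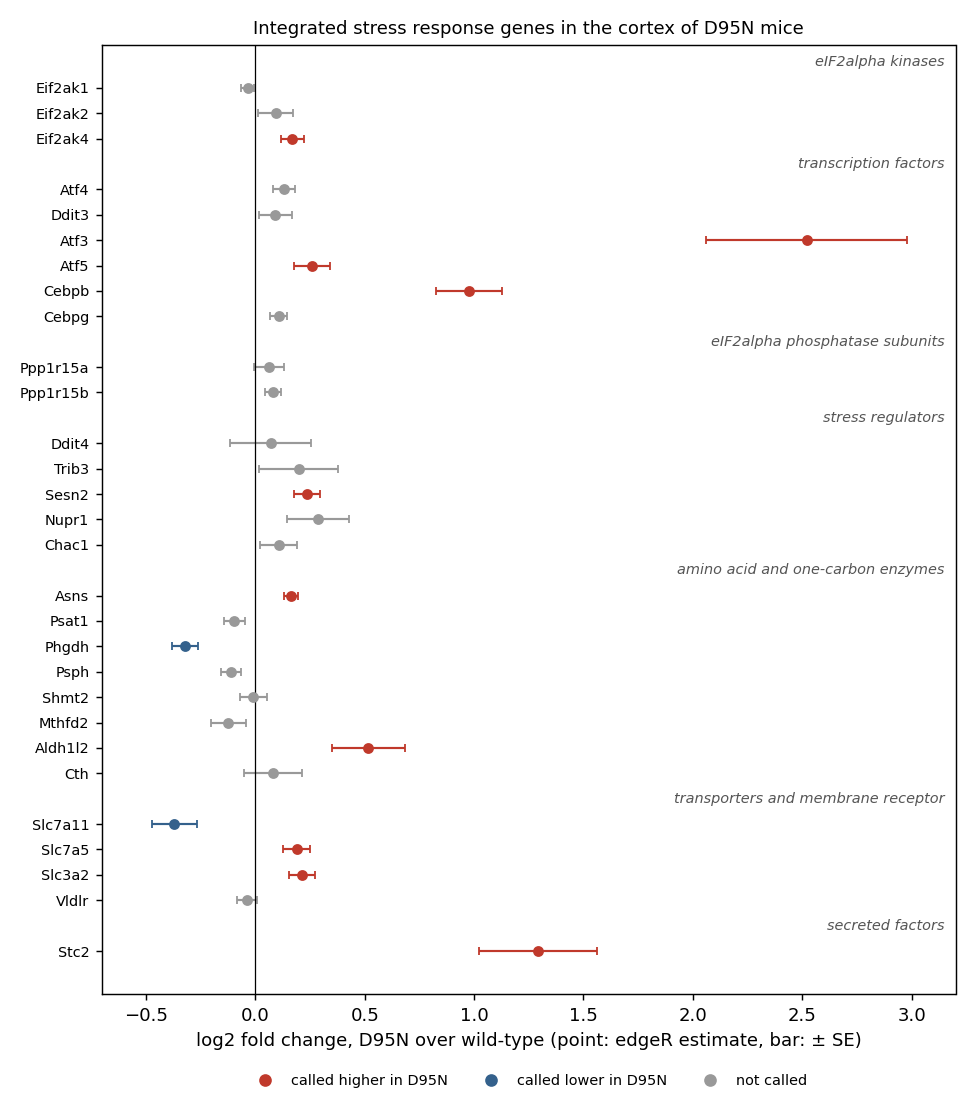
Log2 fold changes of the 29 tested genes, D95N over wild-type, with points at the edgeR estimate and bars of 1 SE, grouped by role. Atf3 at 2.52, Stc2 at 1.29 and Cebpb at 0.98 stand to the right, and Phgdh and Slc7a11 are the 2 genes called lower.

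Of the 3 kinase genes among the members 1 passed the test, Eif2ak4, against 26.8% of all tested genes. The kinase gene Eif2ak3, which is not a member, was called higher too and is described with the other pathway genes. Eif2ak4 encodes GCN2, the kinase that senses uncharged tRNA and stalled ribosomes. Eif2ak4 ran from 22.9 to 29.98 CPM in D95N (median 26.6) and from 21.98 to 24.9 CPM in wild-type libraries (median 23.8). Above the highest wild-type library were 5 of 7 D95N libraries, while D95N 4 and 44 lay inside the range. Its edgeR log2 fold change came to 0.17 ± 0.05 (SE; adjusted p = 0.0285). The call was lost without any one of D95N 21, 41 or 50 or wild-type 8 or 19 (adjusted p up to 0.0634) and with library totals.

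Eif2ak1 encodes HRI, the kinase that responds to haem shortage and to mitochondrial stress. Its level ran from 75.5 to 84.96 CPM in D95N (median 78.1) and from 78.7 to 82.5 CPM in wild-type libraries (median 80.3). Of the D95N libraries 5 lay below the lowest wild-type library and D95N 42 lay above the highest. The fold was 0.977 with a 95% interval of 0.936 to 1.02 and did not pass (edgeR, adjusted p = 0.424). It shares 487 bases of exon with Aimp2 on the opposite strand, a gene called lower (log2 fold change -0.16, edgeR, adjusted p = 0.0231). Eif2ak2 encodes PKR, the kinase activated by double-stranded RNA. It ran from 6.82 to 9.63 CPM in D95N (median 7.45) and from 6.37 to 8.28 CPM in wild-type libraries (median 7.22), with D95N 28 highest and the groups otherwise overlapping. Its fold was 1.07 with a 95% interval of 0.9495 to 1.198 (edgeR, adjusted p = 0.406). Per kilobase of annotated exon, which allows levels of different genes to be compared, Eif2ak1 averaged 13.9 in D95N and 14.2 in wild-type, Eif2ak4 3.58 in D95N and 3.18 in wild-type, and Eif2ak2 1.51 in D95N and 1.41 CPM in wild-type.

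Of 6 transcription factor genes 3 rose, Atf3, Cebpb and Atf5, against 15.2% of all tested genes. The 2 factors that name the pathway did not pass. Atf4, whose protein is the main effector, ran from 86.1 to 105.4 CPM in D95N (median 97.1) and from 81.9 to 99.3 CPM in wild-type libraries (median 87.0). D95N 4, 42 and 50 lay above every wild-type library, and the highest wild-type value was that of animal 24. The fold was 1.10 with a 95% interval of 1.02 to 1.18 (edgeR, adjusted p = 0.0589). Atf4 was called higher without D95N 41, D95N 44 or wild-type 24, and by DESeq2. It was also called higher without D95N 42 and wild-type 19, 24 and 32 together. Over all alternatives adjusted p ran from 0.0224 to 0.159. Ddit3, which encodes CHOP, a factor of late and lasting stress, ran from 17.2 to 28.2 CPM in D95N (median 22.4) and from 20.1 to 22.8 CPM in wild-type libraries (median 20.7). The D95N libraries lay on both sides of the wild-type range, 3 above it and 2 below it, with D95N 28 highest and D95N 4 lowest. The fold was 1.07 with a 95% interval of 0.953 to 1.19 (edgeR, adjusted p = 0.392).

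Atf3 encodes a stress-induced factor that is also an early response gene. It ran from 0.905 to 18.8 CPM in D95N (median 3.98) and from 0.81 to 1.30 CPM in wild-type libraries (median 0.913). Above every wild-type library were 6 of 7 D95N libraries, at 2.33 CPM or more, and D95N 42 lay among the wild types. The edgeR log2 fold change came to 2.52 ± 0.46 (SE; adjusted p = 0.00115), and without D95N 28, the highest library, it was 1.85 (adjusted p = 0.000926). Atf3 lies on chromosome 1 from 191170296 to 191218039. Cebpb encodes a factor that pairs with ATF4 and CHOP and serves in inflammation. It ran from 8.44 to 18.8 CPM in D95N (median 10.8) and from 5.52 to 6.98 CPM in wild-type libraries (median 6.09). Every D95N library lay above every wild-type library, D95N 42 at 10.8 CPM included. The edgeR log2 fold change came to 0.98 ± 0.15 (SE; adjusted p = 0.000443). Cebpb, on chromosome 2 from 167688915 to 167690418, shares 312 bases of exon with Tmem189 on the opposite strand, which was not called (log2 fold change 0.10, edgeR, adjusted p = 0.0967).

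Atf5 encodes a relative of ATF4 tied to mitochondrial stress. It ran from 21.9 to 34.8 CPM in D95N (median 27.0) and from 19.2 to 27.1 CPM in wild-type libraries (median 22.4), and 3 of 7 D95N libraries lay above every wild-type library. Its log2 fold change of 0.26 ± 0.08 (SE) passed (edgeR, adjusted p = 0.0286). The call was lost without D95N 21 or any one of wild-type 11, 16 or 32, with adjusted p up to 0.0625. Cebpg encodes a dimer partner of ATF4. It ran from 41.97 to 47.9 CPM in D95N and from 38.9 to 43.9 CPM in wild-type libraries, with 4 D95N libraries above the wild-type range, and just missed the threshold (log2 fold change 0.11, edgeR, adjusted p = 0.0512). It was called higher in 9 of 25 alternatives, among them DESeq2.

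Of 12 early genes of neuronal activity and handling, 6 were called higher and none lower, against 15.2% and 11.6% of all tested genes. Fosb was at 5.36-fold and Jun at 1.43-fold. The summed level of the 12 was 454 to 1032 CPM in D95N and 283 to 658 CPM in wild-type libraries. D95N 4 at 1032 CPM and D95N 28 at 1005 CPM lay above every wild-type library, and D95N 44, 50, 42, 21 and 41 at 632, 531, 528, 461 and 454 CPM lay inside the range. Egr1, which was not called, was the largest part of this sum, at 217 CPM in D95N and 137 CPM in wild-type. Atf3 was highest in D95N 28 at 18.8 CPM, followed closely together by D95N 41 at 5.53 CPM and D95N 44 at 5.49 CPM. Of 6 genes of reactive astrocytes 5 were called higher, against 15.2% of all tested genes. Lcn2, at 1.05 CPM in D95N and 4.17 CPM in wild-type, was not called. The sum of the 6 was 541 to 1307 CPM in D95N and 385 to 852 CPM in wild-type libraries. The part of both lists in the levels of Atf3 and Cebpb was not tested.

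**Figure D2:**
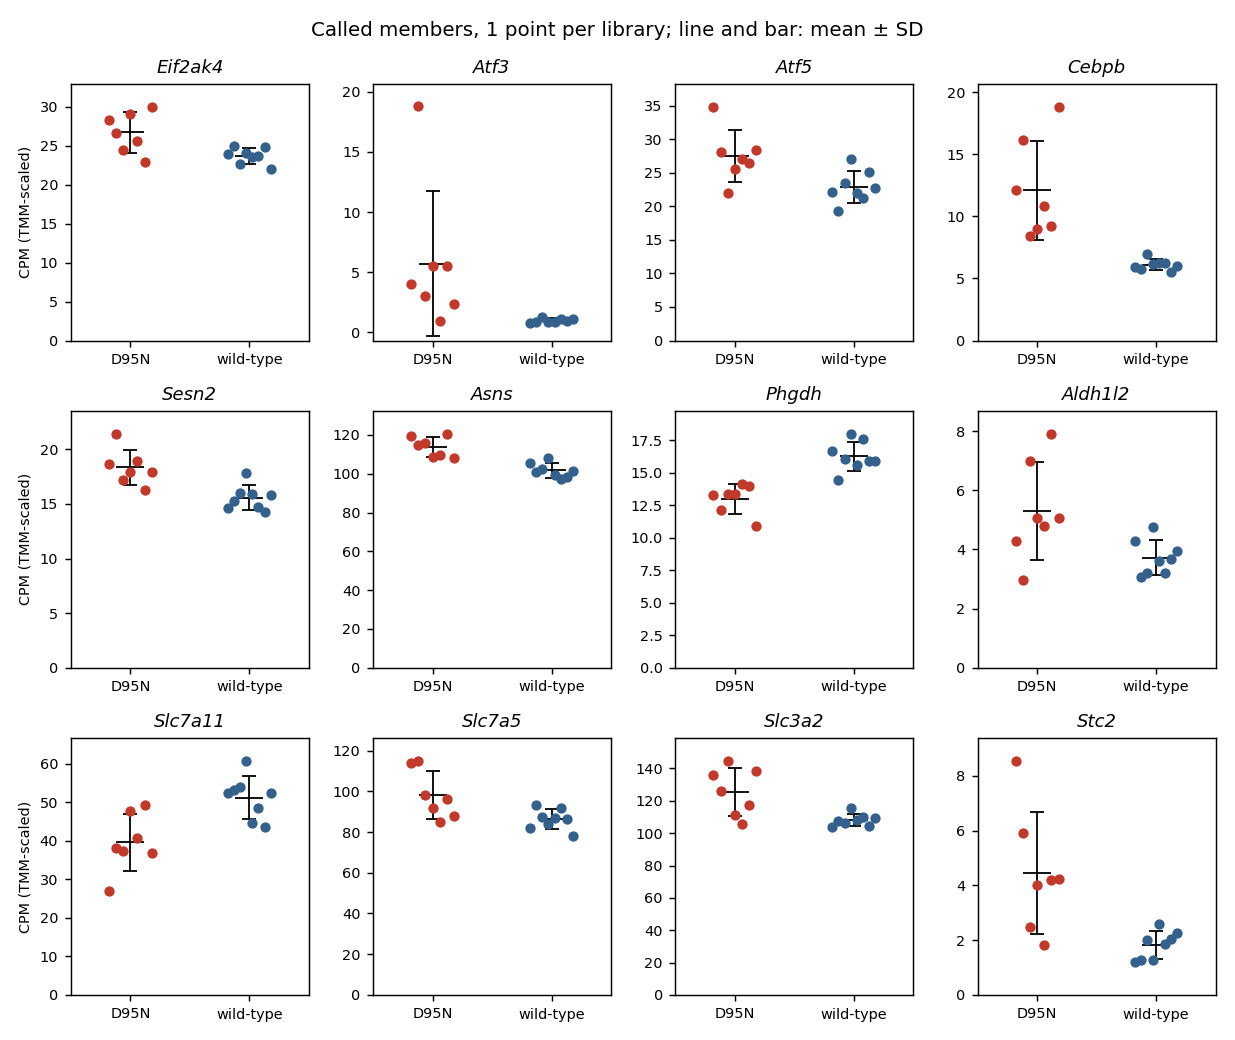
TMM-scaled CPM of the 12 called genes in each library, 7 D95N at left and 8 wild-type at right in every panel, with the mean and a bar of 1 SD. Cebpb and Asns are higher and Phgdh is lower in all D95N libraries, and Atf3 is spread from 0.905 to 18.8 CPM in D95N.

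The phosphatase subunits that reverse eIF2 phosphorylation did not pass. The stress-induced Ppp1r15a, which encodes GADD34, had a fold of 1.04 with a 95% interval of 0.944 to 1.15 (edgeR, adjusted p = 0.529). Ppp1r15b, the constitutive subunit, had a fold of 1.06 with a 95% interval of 1.01 to 1.11 (edgeR, adjusted p = 0.091) and was called only without wild-type 24. Among the stress regulators 1 of 5 was called, against 26.8% of all tested genes. This was Sesn2, which encodes sestrin 2, a leucine sensor that restrains mTORC1. It ran from 16.3 to 21.4 CPM in D95N (median 17.97) and from 14.3 to 17.9 CPM in wild-type libraries (median 15.6), with 5 D95N libraries above the wild-type range. With edgeR it was higher by 0.23 ± 0.06 on the log2 scale (SE, adjusted p = 0.00837).

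Ddit4, another brake on mTORC1 that is induced by glucocorticoids and low oxygen, ran from 32.8 to 86.8 CPM in D95N (median 47.0) and from 40.7 to 58.4 CPM in wild-type libraries (median 51.7). D95N 21 and 28 lay above every wild-type library and D95N 4, 44 and 50 below, and the gene was not called (log2 fold change 0.07, edgeR, adjusted p = 0.805). Nupr1, a stress-inducible chromatin protein gene, reached 11.4 CPM in D95N 44 and lay between 5.54 and 7.94 CPM in the other D95N libraries and between 4.81 and 7.53 CPM in wild-type libraries (fold 1.22, edgeR, adjusted p = 0.145). Chac1, a glutathione-degrading enzyme that ATF4 strongly induces in cultured cells, had 6.40 ± 0.95 CPM in D95N and 5.93 ± 0.376 CPM in wild-type (SD, n = 7 and 8; log2 fold change 0.11; 95% interval of the fold 0.951 to 1.22, edgeR, adjusted p = 0.371). Trib3, a pseudokinase that dampens ATF4 and CHOP, was scarce at 0.891 CPM in D95N and 0.768 CPM in wild-type (fold 1.15, 95% interval 0.88 to 1.496, edgeR, adjusted p = 0.438).

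Of 8 enzyme genes of amino acid and one-carbon metabolism, 2 were called higher and 1 lower, which with so few genes does not stand apart from the 15.2% and 11.6% of all tested genes. Asns encodes asparagine synthetase, a classical ATF4 target. It ran from 108.3 to 120.4 CPM in D95N (median 115) and from 97.3 to 108.2 CPM in wild-type libraries (median 101). The groups did not overlap, though the gap was narrow, and the edgeR log2 fold change came to 0.16 ± 0.03 (SE; adjusted p = 0.00236). Phgdh encodes the first enzyme of serine synthesis, which in brain is made mainly in astrocytes. It ran from 10.9 to 14.1 CPM in D95N (median 13.3) and from 14.5 to 17.97 CPM in wild-type libraries (median 15.99). Every D95N library lay below every wild-type library, and the edgeR log2 fold change came to -0.32 ± 0.06 (SE; adjusted p = 0.00146).

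The other enzymes of the serine pathway had folds below 1 without passing. Psat1, the transaminase after Phgdh, had a fold of 0.936 (95% interval 0.872 to 1.004, edgeR, adjusted p = 0.148), and Psph, the last phosphatase, 0.926 (95% interval 0.867 to 0.99, edgeR, adjusted p = 0.0817). Both were called lower with library totals, and Psph also with upper-quartile factors and without D95N 28 and 50. Psph shares 452 bases of exon with Cct6a on the opposite strand. The mitochondrial one-carbon enzymes Shmt2 and Mthfd2 had folds of 0.994 and 0.919 and did not pass. Aldh1l2, a mitochondrial folate dehydrogenase, ran from 2.96 to 7.89 CPM in D95N (median 5.05) and from 3.07 to 4.74 CPM in wild-type libraries (median 3.64). D95N 28 lay below the wild-type range and 5 others above it. The log2 fold change of 0.52 ± 0.17 (SE) passed (edgeR, adjusted p = 0.0286). That call was lost without any one of D95N 4, D95N 44 or wild-type 16, 19 or 32, with adjusted p up to 0.0729. Aldh1l2 shares 1056 bases of exon with D10Wsu102e on the opposite strand, which was not called (log2 fold change 0.05, edgeR, adjusted p = 0.562). Cth, which makes cysteine from cystathionine, had a fold of 1.06 (edgeR, adjusted p = 0.68).

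Of 10 astrocyte markers, Slc1a3, Gja1, Slc4a4 and Aldoc were called lower, against 11.6% of all tested genes. None was called higher and 6 did not pass. Among those 6, Slc1a2, the most abundant, was at 2603 CPM in D95N and 2624 CPM in wild-type, Aldh1l1 was at 68.8 CPM in D95N and 67.96 CPM in wild-type, and Sox9 had a log2 fold change of 0.15. The summed level was 4810 to 5665 CPM in D95N and 5452 to 5756 CPM in wild-type libraries. The groups overlapped only through D95N 4 at 5665 CPM. The other D95N libraries, at 4810 to 5401.5 CPM, lay below every wild-type library. Slc1a2 is the largest part of that sum, so the sum follows Slc1a3, Gja1, Slc4a4 and Aldoc only in part. The part of astrocyte RNA in the level of Phgdh was not tested.

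Some other cell type lists held called genes as well, where 15.2% of all tested genes were called higher and 11.6% lower. Of 7 neuronal genes 4 were called higher, among them Slc17a7 at 1.41-fold and Gad2 at 1.38-fold, and Syt1 was called lower. All 5 blood cell genes were called lower, with sums of 36.0 to 148 CPM in D95N and 73.6 to 286 CPM in wild-type libraries. All 3 neutrophil genes were called lower, with sums of 0.66 to 2.59 CPM in D95N and 0.599 to 25.4 CPM in wild-type libraries. The highest sum was that of wild-type 32 and the next that of wild-type 19, at 7.80 CPM. Wild-type 11, 16, 30 and 43 had sums of 1.63 CPM or less, so these low levels overlapped between the genotypes. Of 4 mural cell genes 2 were called lower, and of 7 microglial genes 1 was called higher. No gene was called among 6 oligodendrocyte, 6 endothelial and 5 choroid plexus genes. The part of these cells in the levels of the members was not tested.

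Among the transporters, the subunits of the large neutral amino acid exchanger rose and the cystine exchanger fell. Slc7a5 encodes the light chain LAT1, which imports leucine. It ran from 84.9 to 115 CPM in D95N (median 96.4) and from 78.2 to 93.2 CPM in wild-type libraries (median 86.7), with 4 D95N libraries above the range. Its edgeR log2 fold change came to 0.19 ± 0.06 (SE; adjusted p = 0.0339). The call was lost without any one of D95N 21, D95N 28 or wild-type 8, 11 or 24 (adjusted p up to 0.0773) and under scaling by library totals or by upper quartiles. Slc3a2 encodes the heavy chain shared by LAT1 and the cystine exchanger. It ran from 105.4 to 144.4 CPM in D95N (median 126) and from 103.7 to 116 CPM in wild-type libraries (median 108). Above the wild-type range were 5 D95N libraries, while D95N 41 and 42 lay inside it. The edgeR log2 fold change came to 0.21 ± 0.06 (SE; adjusted p = 0.0124). The call was lost without D95N 28 and 50 together (adjusted p = 0.0504).

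Slc7a11 encodes xCT, the cystine and glutamate exchanger of astrocytes and meninges. It ran from 27.0 to 49.3 CPM in D95N (median 38.1) and from 43.5 to 60.7 CPM in wild-type libraries (median 52.6). Below the wild-type range were 5 D95N libraries, with D95N 21 lowest, while D95N 41 and 44 lay inside it. The edgeR log2 fold change came to -0.37 ± 0.10 (SE; adjusted p = 0.0137). The call was lost without D95N 28 and 50 together and without D95N 42 and wild-type 19, 24 and 32 together (adjusted p up to 0.0769). Beside it, 3 of 7 meningeal fibroblast markers were called lower and none higher, against 11.6% and 15.2% of all tested genes. The sums of these markers were 44.1 to 80.2 CPM in D95N and 66.0 to 106.3 CPM in wild-type libraries. Their part in the level of Slc7a11 was not tested. Vldlr, a lipoprotein and reelin receptor, had a fold of 0.974 with a 95% interval of 0.9097 to 1.04 (edgeR, adjusted p = 0.582).

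Of the secreted factors, only Stc2, a stanniocalcin that ATF4 induces under endoplasmic reticulum stress, was abundant enough to test. It ran from 1.81 to 8.53 CPM in D95N (median 4.20) and from 1.197 to 2.58 CPM in wild-type libraries (median 1.94). D95N 21 was highest, 5 D95N libraries lay above the wild-type range, and D95N 4 and 42 lay inside it. The edgeR log2 fold change came to 1.29 ± 0.27 (SE; adjusted p = 0.00268), and 1.05 without D95N 21. Fgf21, a hormone gene of the starved and stressed liver, failed the filter. It had 40 reads over 6 D95N libraries, the highest with 15, none in D95N 42, and 2 reads in a single wild-type library. The ratio of summed reads, adjusted for library size, was 25.5, with an exact 95% interval of 6.61 to 218 that covers counting error only. Gdf15, a circulating marker of mitochondrial stress, had 7 reads over the D95N libraries and 19 over the wild-type libraries.

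The 250 bases before the RefSeq start were searched on both strands for TGATGNAA, the core of the amino acid response element that ATF4 and C/EBP factors bind. RefSeq promoters on GRCm38.p6 were matched for 27 members. The core was found in 7 of them (7 of 32 member promoters), against 3.45% of 32851 promoters of the same length. Because the members include genes listed as ATF4 targets, this contrast follows in part from the list and is not a result of these data. Among the members with a promoter it stood before 2 of 8 called higher, 1 of 2 called lower and 3 of 15 not called, so members with the core were found in every group. The sequences below are those of the 3 called genes that hold it, and of Fgf21, added after its reads were seen. Each runs 5′ to 3′ on the strand of the gene and ends at the base before the start, with the core, or its reverse complement, in capitals.

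Atf3, chr1:191183334-191183583, minus strand: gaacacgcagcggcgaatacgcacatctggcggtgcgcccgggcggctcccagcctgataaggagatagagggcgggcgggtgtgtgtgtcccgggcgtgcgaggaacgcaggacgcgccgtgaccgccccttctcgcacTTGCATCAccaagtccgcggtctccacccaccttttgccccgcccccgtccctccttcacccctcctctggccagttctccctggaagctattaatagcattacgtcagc
Asns, chr6:7693210-7693459, minus strand: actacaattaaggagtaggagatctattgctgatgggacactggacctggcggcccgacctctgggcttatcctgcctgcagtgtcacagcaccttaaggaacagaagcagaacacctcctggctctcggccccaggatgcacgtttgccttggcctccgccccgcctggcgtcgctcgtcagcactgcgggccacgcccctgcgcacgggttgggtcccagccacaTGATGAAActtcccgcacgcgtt
Slc7a11, chr3:50443614-50443863, minus strand: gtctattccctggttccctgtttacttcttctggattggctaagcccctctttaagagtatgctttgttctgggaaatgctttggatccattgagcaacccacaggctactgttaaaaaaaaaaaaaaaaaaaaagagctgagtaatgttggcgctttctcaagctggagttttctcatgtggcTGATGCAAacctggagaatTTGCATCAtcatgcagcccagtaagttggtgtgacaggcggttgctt
Fgf21, chr7:45615491-45615740, minus strand: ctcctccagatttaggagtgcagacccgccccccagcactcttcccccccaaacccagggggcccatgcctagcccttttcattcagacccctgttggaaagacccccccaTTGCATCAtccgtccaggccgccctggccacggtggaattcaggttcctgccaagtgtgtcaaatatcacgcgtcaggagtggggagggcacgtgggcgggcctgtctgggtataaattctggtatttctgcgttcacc

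Starts here are those of RefSeq, which differ from the GENCODE gene bounds for some genes. The RefSeq start of Atf3 lies inside the GENCODE gene, whose bounds run to 191218039 on its minus strand, and the core of Asns lies inside the GENCODE gene, which runs from 7675169 to 7693254 on chromosome 6. The core of Asns begins 23 bases before the RefSeq start and that of Atf3 110 bases before it. Slc7a11 holds the core on both strands, the first 66 bases before the start, and is the gene of this set that was lower in D95N. Chac1, Nupr1 and Vldlr hold the core as well and were not called. A match of letters is not a binding site, and binding was not measured.

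Of the parts of the pathway outside the members, 4 of 16 genes for eIF2, its exchange factor eIF2B and regulators of the kinases were called higher and none lower, against 15.2% and 11.6% of all tested genes. With library totals, Eif2b4 and Eif2b5 lost their calls. Gcn1l1, the ribosome-bound activator of GCN2, averaged 86.98 CPM in D95N and 75.2 CPM in wild-type libraries, with every D95N library at 81.4 CPM or more and every wild-type library at 79.6 CPM or less (log2 fold change 0.21 ± 0.04 SE, edgeR, adjusted p = 0.00178). Eif2ak3, which encodes PERK, the kinase of endoplasmic reticulum stress, averaged 36.7 CPM in D95N and 32.2 CPM in wild-type (log2 fold change 0.19 ± 0.04 SE, edgeR, adjusted p = 0.0054). The eIF2B subunit genes Eif2b4 and Eif2b5 were higher by 0.13 and 0.16 on the log2 scale. Eif2b5 lost its call also when any one of several libraries was left out, D95N 21 among them (adjusted p up to 0.079). Eif2s1, the gene of the phosphorylated subunit, was not called (fold 1.03, edgeR, adjusted p = 0.625).

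Among 23 tested ATF4 and CHOP targets outside the members, 4 rose and 3 fell, shares near the 15.2% and 11.6% of all tested genes. Slc1a5, a glutamine transporter, averaged 4.68 CPM in D95N and 3.17 CPM in wild-type libraries (log2 fold change 0.56, edgeR, adjusted p = 0.00196). Slc1a4, a serine and alanine transporter, averaged 86.1 CPM in D95N and 69.5 CPM in wild-type (log2 fold change 0.31, edgeR, adjusted p = 0.00423). Ero1l, an oxidase of the endoplasmic reticulum, averaged 36.3 CPM in D95N and 31.8 CPM in wild-type (log2 fold change 0.19, edgeR, adjusted p = 0.00221), and Map1lc3b, an autophagosome protein, 134.5 CPM in D95N and 145 CPM in wild-type (log2 fold change -0.11, edgeR, adjusted p = 0.0174). Of 12 cytosolic tRNA synthetase genes under ATF4 control 3 rose and none fell (15.2% and 11.6% of all tested genes), namely Nars, Aars and Gars, each by about 0.1 on the log2 scale. Gars lost its call when any one of several libraries was left out, D95N 21 among them (adjusted p up to 0.0696), and all 3 lost it with library totals or upper-quartile factors. The summed level of the 12 was 1301 to 1409 CPM in D95N and 1265 to 1299 CPM in wild-type libraries. The medians of these 3 lists were 0.02, 0.03 and 0.08 on the log2 scale, against -0.01 over all tested genes.

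**Figure D3:**
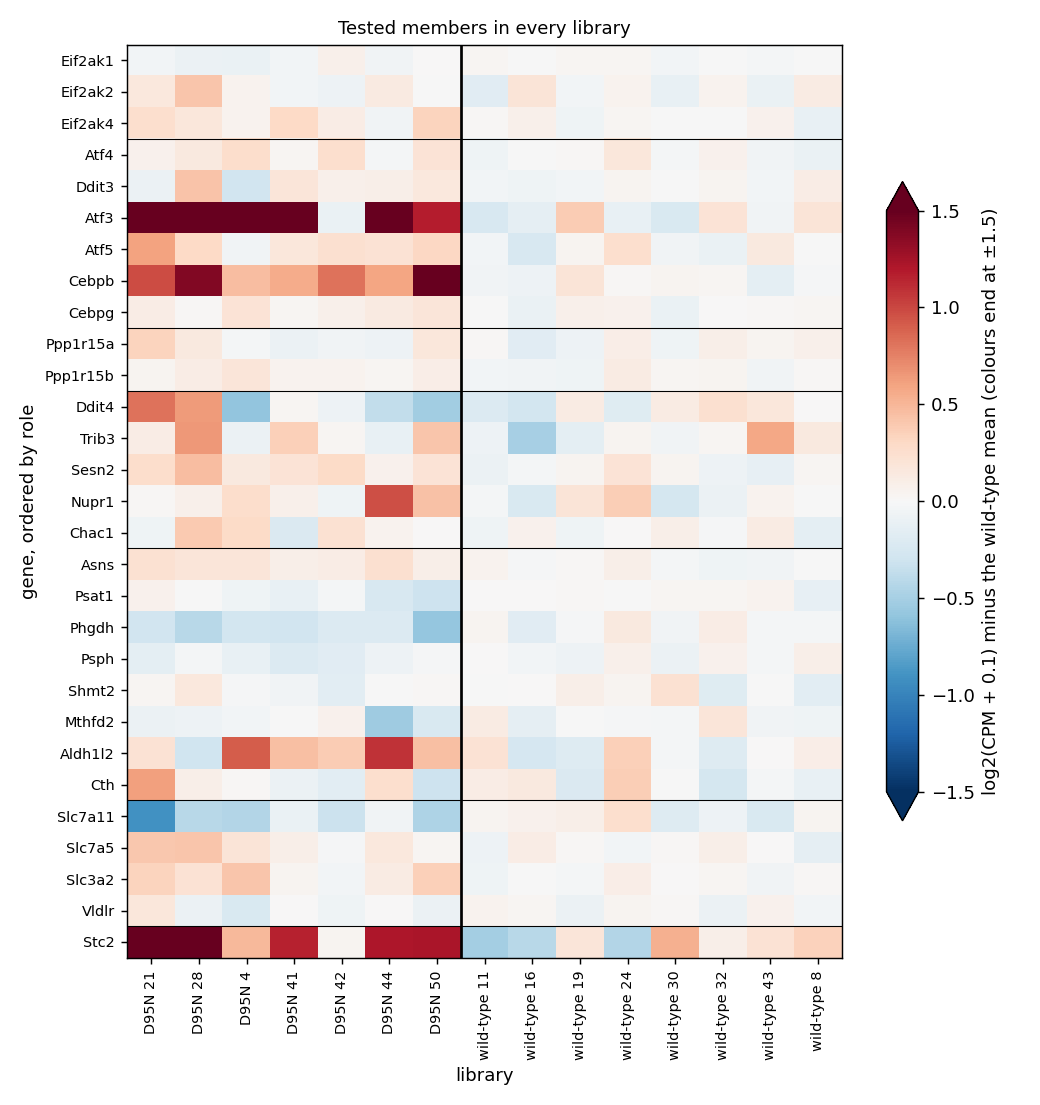
Level of each tested gene in each library as log2(CPM + 0.1) minus the wild-type mean, D95N libraries left of the line and wild-type right of it, genes ordered by role. Atf3, Cebpb and Stc2 are red in most D95N libraries, D95N 42 is pale for Atf3 and Stc2, and Ddit4 is red in D95N 21 and 28 and blue in D95N 4, 44 and 50.

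The D95N animals differed among themselves. D95N 21 and 28 had 15 of 29 members above every wild-type library, D95N 50 had 14, D95N 4 had 10, D95N 44 had 9, and D95N 41 and 42 had 8 each. Below every wild-type library were 3 to 7 members per D95N library. Over all tested genes, 16.2% to 30.3% lay above every wild-type library and 16.5% to 30.9% below every one, in both cases with D95N 42 lowest and D95N 28 highest. Of the 10 genes called higher, D95N 21, 28 and 50 exceeded the wild-type range in 9 and D95N 42 in 5. The same libraries were used to call these 10 genes, so high counts here were built in. No such share was taken over all genes called higher. The SD of log2 CPM was larger in D95N for 26 of 29 members (89.7%), against 83.2% of all tested genes, with medians over the members of 0.171 in D95N and 0.0991 in wild-type.

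Scaled by exon length, the members spanned a wide range of levels. Asns and Atf4 were the most abundant in D95N, at 41.6 and 40.97 CPM per kilobase in D95N and 37.2 and 37.4 in wild-type libraries. Psat1, Slc3a2, Ddit4 and Slc7a5 followed, at 26.5 to 35.6 in D95N and 23.3 to 36.2 in wild-type. The genes with the largest folds were among the scarcest. Atf3 stood at 2.66 CPM per kilobase in D95N and 0.458 in wild-type, and Stc2 at 0.862 in D95N and 0.35 in wild-type. Cebpb, at 8.03 in D95N and 4.06 in wild-type, was more abundant.

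**Figure D4:**
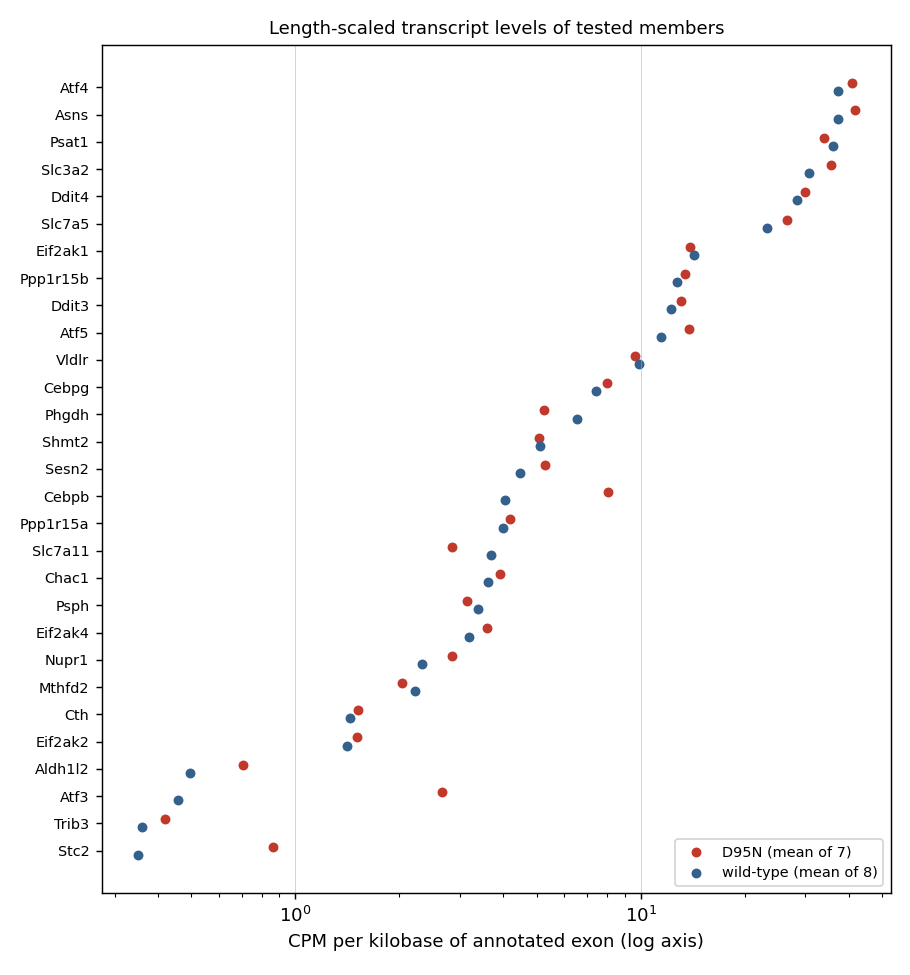
Mean level per kilobase of annotated exon on a log axis, D95N above and wild-type below in each row, genes ordered by the wild-type level. Most pairs of points lie close together, and Atf3, Stc2 and Cebpb show the widest gaps.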

How the data were processed

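The authors deposited raw read counts for each Ensembl gene, with a table for every library. STAR, featureCounts and GRCm38 are named, per the submitters' processing notes. Their versions, the annotation, strandedness and treatment of multiply matching reads are not stated in any source used. RNA came from frozen tissue by Trizol extraction, per the labels' protocols. Of 22524 identifiers, 22291 matched GENCODE M21.

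Deposited counts were tested with edgeR 4.0.16 (R 4.3.3) using TMM scaling, its standard expression filter and a model of genotype alone, with Benjamini-Hochberg adjustment over all 14989 genes that passed. CPM values were derived from those counts. The SE was taken as the absolute log2 fold change over the root of F, and 95% intervals use the test's degrees of freedom. Groups come from the titles; no label gives a batch or litter, and p-values reflect the spread between animals. Totals ran from 23349381 to 34587082 counts. The members and lists were chosen with earlier results of these data known. Every member is accounted for, and of the other pathway lists up to 4 called genes by smallest p are named. Marker genes given beside a result were chosen after their values were seen. All 49 pairs of libraries within a group differed beyond sampling noise, with a chi-square per degree of freedom of 3.77 or more.

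In simulated counts for D95N against wild-type (14934 genes, drawn independently), 50% of the genes changed 1.2-fold were recovered. The share was 88% for 1.5-fold, 94% for 2-fold and 98% for 3-fold changes, and 6 calls were false. Only 50 genes were changed at each fold, with the same dispersion in both groups. In the data 26.8% of tested genes were called and 83.2% had the larger SD of log2 CPM in D95N. The simulated shares therefore do not carry over directly to this comparison. Alternatives used DESeq2 1.42.0, limma-voom 3.58.1, other scalings and filters, and libraries left out.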

Additional observations from a re-analysis of the deposited data

Results flagged for a closer look

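Of 58 groups of values, 1 member in 1 genotype each, 3 held a library far from the rest, where chance gives about 1 in 20 for independent values. Atf3 stood at 18.8 CPM in D95N 28, with the next D95N library at 5.53 CPM. Nupr1 stood at 11.4 CPM in D95N 44, with the next at 7.94 CPM. Psat1 stood at 141 CPM in wild-type 8, with the other wild-type libraries at 153 to 159 CPM.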

How the results depend on the processing

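No analysis paired by litter was possible because no label gives the litter of an animal. In 25 alternatives, 15 of them leaving out a single library, 6 of the 12 called members kept their call throughout, namely Atf3, Cebpb, Sesn2, Asns, Stc2 and Phgdh, and no called member changed direction. With 1 library left out, 7 to 12 members were called higher and 2 lower in each case, against 13.0% to 17.9% and 8.67% to 15.2% of all genes. Called lower were 4 members with library totals, where Psat1 and Psph were added, and 1 without D95N 42 and wild-type 19, 24 and 32. Called higher were 6 without D95N 28 and 50, where Eif2ak4, Atf5, Slc7a5 and Slc3a2 were lost and, among those lower, Slc7a11 was lost and Psph gained, a setting chosen after seeing the data, as was leaving out D95N 28 and 42. Fgf21 entered the test without an expression filter and in DESeq2 and was called (adjusted p = 0.00294 by edgeR and 0.000529 by DESeq2). Over all tested genes 2272 were higher and 1744 lower; scaling by library totals gave 1808 and 2536. Of the 17 members not called, 5 were called in at least 1 alternative. Direction reversed in 3 uncalled members. Ddit4 ran from -0.094 to 0.16 on the log2 scale with 1 library left out, below 0 without D95N 21 or 28, and stood at -0.017 by limma-voom and -0.040 without D95N 28 and 42. Cth ran from -0.029 to 0.14, below 0 without D95N 21. Shmt2 ran from -0.036 to 0.027, above 0 without D95N 41, D95N 42, wild-type 19 or wild-type 30, and stood at 0.0027 without D95N 42 and wild-type 19, 24 and 32. The causes were not tested. Fgf21 and Gdf15 lay below the depth that the expression filter asks for.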

Other observations

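Wild-type 24 was the highest wild-type library for 13 of the 29 tested members (44.8%), and for 13.7% of all tested genes. Among these were Atf4, Atf5, Sesn2, Asns, Phgdh and Slc7a11, so they include genes called in either direction. The same library had 852 CPM in the summed reactive astrocyte markers, against 385 to 534 CPM in the other wild-type libraries, and 658 CPM in the early genes, against 283 to 511 CPM. This pattern was noticed in the data and was not tested.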
